A study of Mus musculus with 17 samples.

Results

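The genes described here are 35 enzymes, regulators and transporters of cholesterol and fatty acid synthesis, chosen by name as a functional set. Their expression was read from 17 RNA-seq libraries, each made from hippocampal tissue of adult mice. Of the 35 genes, 34 could be matched to an identifier among the 55450 genes counted, and all 34 passed the filter on low counts. Hmgcs1, an early enzyme of the mevalonate pathway, was not analysed here.

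The study asked whether raising the potassium channel gene Kcna1 by CRISPRa reverses the changes in gene expression that accompany temporal lobe epilepsy. Per its methods, epilepsy was set off in C57BL/6J mice of both sexes by kainic acid in the amygdala, and every mouse in all 3 groups carried adeno-associated viruses in the hippocampus and was fed doxycycline. The viruses encode a nuclease-dead Cas9 fused to a transcriptional activator (dCas9-VP64) with a guide RNA, and a doxycycline-controlled transactivator under the Camk2a promoter, which steers the activator mainly to excitatory neurons, whereas the RNA came from whole hippocampal tissue. The control sgLacZ group (5 libraries) held sham mice with a guide against a bacterial gene, the epileptic sgLacZ group (6 libraries) held epileptic mice with the same guide, and the epileptic sgKcna1 group (6 libraries) held epileptic mice with a guide to the Kcna1 promoter. Sham mice with the Kcna1 guide were not analysed here. A library is named by the letter of its group (C, E or K) and the replicate number of its label.

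Cells make cholesterol from acetyl-CoA through the mevalonate pathway to squalene, and then close and trim the rings of the sterol. In the adult brain cholesterol is made locally, largely by glia, it is the main lipid of myelin together with long-chain fatty acids, and neurons remove it by turning it into 24S-hydroxycholesterol. Both syntheses are switched on by the SREBP transcription factors, which Scap carries out of the endoplasmic reticulum when sterols are low and which the Insig proteins hold back when sterols are plentiful.

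Depth ran from 11839240 to 28311328 reads in genes. Library E4 was the deepest and had the lowest share of unmapped reads (11.0%), whereas K12 was the shallowest and had the highest (41.5%). The share of unmapped reads was 19.5 to 27.7% in the controls. Of the 17 libraries, E4 was the highest or lowest in 20 of 34 members (58.8%) against 43.3% of all 17615 tested genes, and K12 in 17 of 34 (50%) against 45.6%. Kcna1 itself lay between 25.5 and 44.0 CPM (read counts scaled to library size, with TMM factors between libraries) in control sgLacZ, between 16.9 and 56.7 in epileptic sgLacZ and between 13.9 and 132.5 in the libraries labelled epileptic sgKcna1, with a median of 19.1 in the last. Only 1 of the 6 libraries labelled epileptic sgKcna1 lay above the epileptic sgLacZ range. In edgeR the adjusted p was 0.706 between both epileptic groups, so the target gene did not set this group apart by the test. By quantitative PCR the paper reported more Kcna1 in hippocampi injected with the Kcna1 guide than on the opposite side. It also reported no clear rise by RNA-seq, which it proposes may reflect few Kcna1 reads. Defining markers of neurons, astrocytes, oligodendrocytes and microglia were detected in every library, with none at 0. Sex, read from Xist and Y-linked counts, was unbalanced (4 of 6 libraries female in epileptic sgLacZ, 2 of 6 in epileptic sgKcna1 and 2 of 5 in control sgLacZ), and 6 libraries carried both Xist and Y-linked reads above 2 CPM.

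The promoters of 4 of the 5 members called in the first comparison, and of Scap, the one member whose groups did not overlap there, are shown here, since SREBP proteins act at promoters together with factors that bind CCAAT and GC boxes. No window is shown for Fads1. Each window runs from 250 bases before to 50 bases after the start that the RefSeq table (GRCm38.p6) takes for the gene, which for Cyp46a1 lies further in than the first base of the gene given with its values, and is written along the gene's own strand. Capitals mark CCAAT (or ATTGG) and GGGCGG (or CCGCCC), searched on both strands, neither of which lies within the other. The windows are chr8:64733529-64733828 (minus strand) for Sc4mol, which is now called Msmo1, chr12:108334066-108334365 (plus strand) for Cyp46a1, chr11:100527951-100528250 (minus strand) for Acly, chr19:10101454-10101753 (minus strand) for Fads2 and chr9:110333038-110333337 (plus strand) for Scap.
Sc4mol: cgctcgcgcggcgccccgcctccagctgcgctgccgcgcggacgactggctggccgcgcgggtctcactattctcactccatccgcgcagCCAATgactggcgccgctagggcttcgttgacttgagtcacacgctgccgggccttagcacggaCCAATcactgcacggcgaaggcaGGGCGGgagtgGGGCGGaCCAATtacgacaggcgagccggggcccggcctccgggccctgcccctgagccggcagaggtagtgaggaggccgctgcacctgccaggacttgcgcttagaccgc
Cyp46a1: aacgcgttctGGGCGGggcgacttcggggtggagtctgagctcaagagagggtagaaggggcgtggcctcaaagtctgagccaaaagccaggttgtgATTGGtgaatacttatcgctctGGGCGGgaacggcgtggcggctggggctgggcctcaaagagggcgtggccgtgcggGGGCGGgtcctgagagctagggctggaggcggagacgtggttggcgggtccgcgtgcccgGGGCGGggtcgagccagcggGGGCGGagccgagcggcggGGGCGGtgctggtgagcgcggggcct
Acly: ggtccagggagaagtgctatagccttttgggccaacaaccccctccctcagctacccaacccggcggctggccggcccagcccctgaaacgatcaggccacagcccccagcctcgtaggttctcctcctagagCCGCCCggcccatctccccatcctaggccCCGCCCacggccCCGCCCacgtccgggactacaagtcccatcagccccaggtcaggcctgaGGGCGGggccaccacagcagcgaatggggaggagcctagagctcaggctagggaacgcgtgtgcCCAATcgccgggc
Fads2: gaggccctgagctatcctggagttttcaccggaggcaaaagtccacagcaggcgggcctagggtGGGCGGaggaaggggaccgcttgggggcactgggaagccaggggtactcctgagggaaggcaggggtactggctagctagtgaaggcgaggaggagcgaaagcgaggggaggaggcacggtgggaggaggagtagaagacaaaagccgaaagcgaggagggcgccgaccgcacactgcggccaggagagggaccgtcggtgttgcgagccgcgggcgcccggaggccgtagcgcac
Scap: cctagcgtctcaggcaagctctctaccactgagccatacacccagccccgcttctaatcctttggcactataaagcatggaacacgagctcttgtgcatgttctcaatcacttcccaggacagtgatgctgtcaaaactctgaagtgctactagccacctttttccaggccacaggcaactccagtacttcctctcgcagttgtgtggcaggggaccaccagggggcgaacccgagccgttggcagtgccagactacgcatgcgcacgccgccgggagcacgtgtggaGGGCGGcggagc

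The Sc4mol window held 3 CCAAT boxes and 2 GC boxes, that of Cyp46a1 held 1 and 6, and that of Acly 1 and 4. Fads2 and Scap each held 1 GC box and no CCAAT box. A window was at hand for 26 of the 34 members. CCAAT occurred in 20 of the 26 (76.9%) against 37.4% of all 32851 windows of the same length, and GGGCGG in 19 of the 26 (73.1%) against 35.7%. The letters TCACNCCAC, a core of the sterol regulatory element, were searched on both strands and were found in 0 of the 26 member windows and in 1.24% of all windows. These are matches of letters in a short window, not measured binding. The 32851 windows were not limited to genes tested here, as all members were, and the share among expressed genes alone was not counted.

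In control hippocampus the members spanned a wide range of levels. Per kilobase of the longest coding transcript, Scd2, the main brain desaturase that makes oleate from stearate, stood at 197 ± 7.96 CPM (SD, n = 5). Sc4mol followed at 77.9 ± 10.7 and Fads2 at 74.8 ± 7.82 CPM per kilobase, a difference smaller than either SD. Cyp46a1 stood at 57.0 ± 5.78, Fdft1 at 46.6 ± 4.71 and Fads1 at 44.5 ± 3.05 CPM per kilobase, and the last 2 again differed by less than an SD. At the other end Fdps was counted at only 0.871 CPM per kilobase and Idi1 at 2.15.

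Levels of members with near-identical copies are uncertain, since reads that map to several places were not counted. A search of the older mm9 genome found a copy outside the gene, at 97% identity or more over at least 76 bases, for 94.1% of the Fdps transcript. The share was 86.5% for Idi1, 85% for Acaca, 76.7% for Insig1 and 56.3% for Fdft1, and at most 8.35% for the other 29 members. Fdps had 4 to 33 reads per library and Idi1 34 to 394, while Acaca had 188 to 2052 and Insig1 651 to 2258. The part of the copies in these counts was not tested. Overlapping genes on the opposite strand take reads as well: the counts of both strands summed to 1.12 times the unstranded count for Fdft1, 1.11 times for Lss, 1.08 times for Srebf1 and 1.06 times for Scap.

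**Figure D1:**
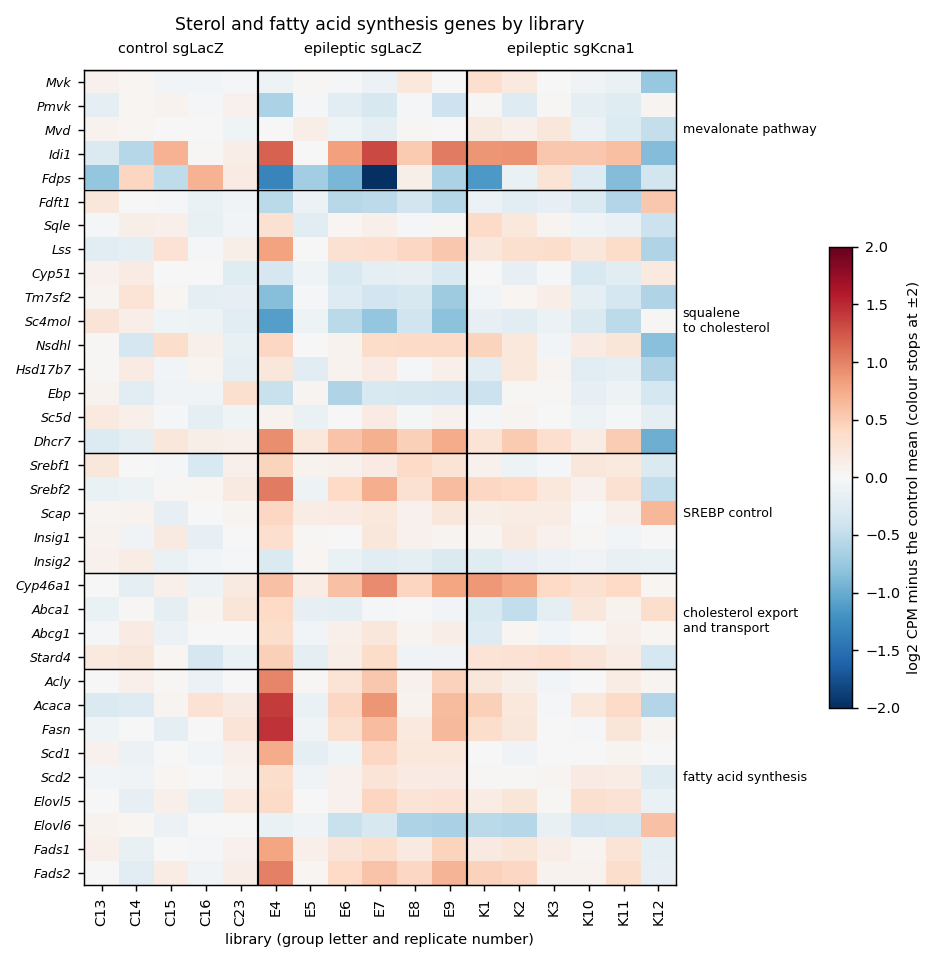
Log2 CPM of the 34 members (rows, grouped by role) in each of the 17 libraries (columns, grouped by condition), minus the mean of the control libraries, with colours stopping at ±2. Most rows of fatty acid synthesis and SREBP control are redder in E4, E7 and E9, E5 is close to white in most rows, and K12 stands apart from the other epileptic sgKcna1 libraries.

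The first comparison asked which of these genes differ between epileptic and sham hippocampus when both carry the control guide. Acly, Fads1 and Fads2, 3 of the 9 genes of fatty acid synthesis, and the cholesterol hydroxylase Cyp46a1 were higher in epileptic sgLacZ, and one enzyme of the last steps of cholesterol synthesis, Sc4mol, was lower. Of the 34 members, 5 passed an adjusted p of 0.05 in edgeR's quasi-likelihood test (14.7%), a share near the 11% of all tested genes. The 4 members that rose (7.26% of all genes rose) were Cyp46a1, Acly, Fads1 and Fads2, and the 1 that fell (3.76% of all genes fell) was Sc4mol. At an unadjusted p under 0.05 there were 20 of 34 (58.8%), 11 higher and 9 lower, against 34.7% of all genes (18.8% higher and 15.9% lower). The median log2 fold change was 0.13 over the members and 0.02 over all tested genes. In bulk tissue, fewer cells of a type and less RNA per cell cannot be told apart.

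Sc4mol (chr8:64718123-64733578), a C4-methylsterol oxidase that removes methyl groups from lanosterol products, was the only called member of the sterol pathway itself. Its level in the 5 controls was 190, 174, 148, 147 and 137 CPM, and in the 6 epileptic sgLacZ libraries it ran from 73.9 in E4 over a median of 100 to 148 in E5. All epileptic libraries except E5 were below every control. The log2 fold change was -0.60 ± 0.15 (SE, edgeR adjusted p = 0.0332).

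Among the genes of cholesterol export and transport, only Cyp46a1 (chr12:108334268-108362234) was called. It encodes cholesterol 24-hydroxylase, the neuronal enzyme that makes 24S-hydroxycholesterol and so lets cholesterol leave the brain. Control libraries had 120, 106, 130, 112 and 136 CPM, and epileptic sgLacZ libraries ran from 133 in E5 over a median of 181 to 232 in E7. E5 alone lay inside the control range. The log2 fold change was 0.60 ± 0.15 (SE, edgeR adjusted p = 0.0333). The transporters Abca1 (log2 fold change 0.00) and Abcg1 (0.14), which load cholesterol onto lipoprotein particles, and the sterol carrier Stard4 (0.11) did not pass the test (adjusted p = 0.987, 0.266 and 0.620).

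Fatty acid synthesis held 3 of the 5 calls. Of its 9 members 8 had a positive log2 fold change, against 52% of all tested genes, and the median was 0.37. With library sizes alone or RLE size factors as the scaling, 8 of 9 were again positive. Acly, Acaca, Fasn, Scd1, Scd2 and Elovl6 have transcripts of 4000 bases or more. Of all tested genes of that length, 3348 of 4621 were positive. Acly (chr11:100476352-100528000), which splits citrate into the acetyl-CoA that both pathways start from, was at 104, 113, 106, 96.6 and 105 CPM in the controls and at 106 (E5) to 207 (E4), median 136, in epileptic sgLacZ. E5 and E8 lay within the control range, and the log2 fold change was 0.43 ± 0.13 (SE, edgeR adjusted p = 0.0469). Fads2 (chr19:10062765-10101503), the delta-6 desaturase that opens the synthesis of polyunsaturated fatty acids, was at 112, 96.7, 125, 107 and 123 CPM in the controls and at 115 (E5) to 225 (E4), median 159, in epileptic sgLacZ. Only E5 fell within the control range, and the log2 fold change was 0.54 ± 0.15 (adjusted p = 0.0369). The neighbouring gene Fads1 (chr19:10182877-10196874), the delta-5 desaturase of the same route, was at 165, 139, 152, 150 and 163 CPM in the controls and at 164 (E5) to 266 (E4), median 189, in epileptic sgLacZ. Again only E5 overlapped the controls, and the log2 fold change was 0.37 ± 0.12 (adjusted p = 0.0483).

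The other members of fatty acid synthesis, 6 of 9, did not pass the threshold. Fasn, the fatty acid synthase, had a log2 fold change of 0.60 ± 0.20 (adjusted p = 0.0519), and Acaca, the acetyl-CoA carboxylase ahead of it, 0.63 ± 0.23 (adjusted p = 0.0764). Both were highest in E4, at 380 CPM for Fasn and 69.9 CPM for Acaca, and the Fasn value in E4 was far above the next epileptic library (219 CPM in E9). The desaturases Scd1 (0.25, adjusted p = 0.158) and Scd2 (0.16, adjusted p = 0.219) and the elongase Elovl5 (0.24, adjusted p = 0.118) lay above 0. Elovl6, which lengthens palmitate, was the one member of the group with a negative log2 fold change (-0.36, adjusted p = 0.143).

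**Figure D2:**
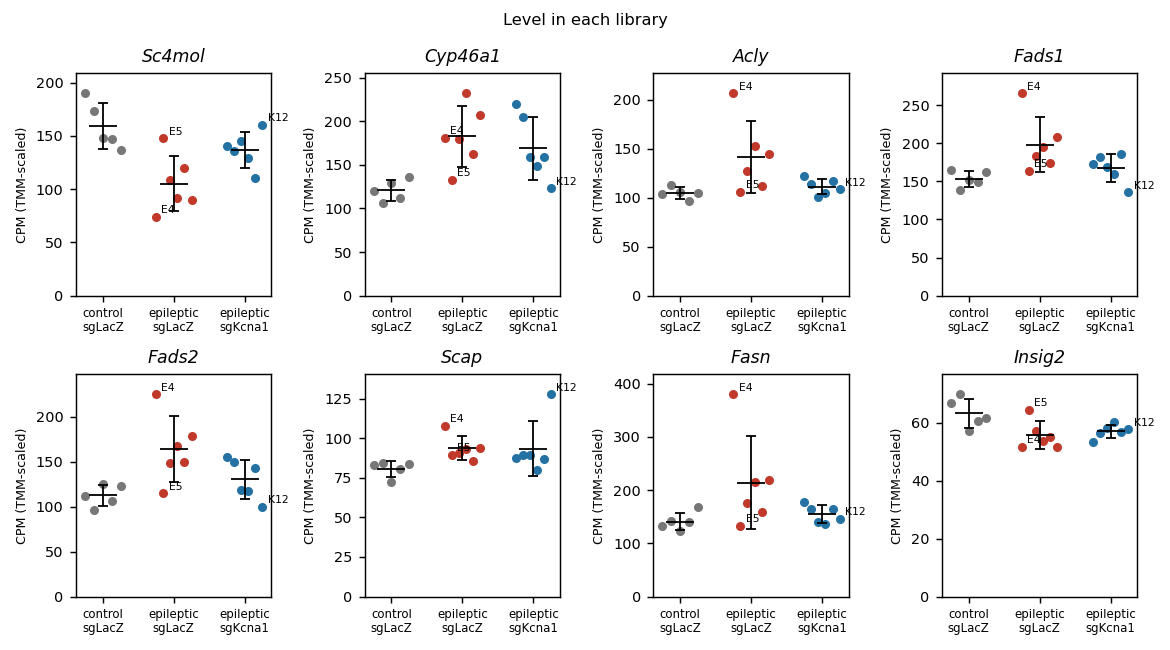
Level of 8 members in each library (points, CPM scaled by TMM, axis from 0) with the mean and SD of each group (black), n = 5 control sgLacZ, 6 epileptic sgLacZ and 6 epileptic sgKcna1 libraries. Among the genes that rose, E4 is the highest epileptic sgLacZ library for Acly, Fads1 and Fads2, E5 the lowest for all 4, and the epileptic sgKcna1 points mostly lie between both other groups.

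Steps from squalene to cholesterol were split, with 6 of 11 members above 0 and 5 below, and Sc4mol was the only call. Dhcr7, which carries out a final reduction to cholesterol, had a log2 fold change of 0.61 ± 0.20 (edgeR adjusted p = 0.0520), with 16.0 to 22.7 CPM in the controls and 22.5 to 36.8 in epileptic sgLacZ. Lss, which closes the sterol rings as lanosterol synthase, had 0.41 (adjusted p = 0.0974) and the 3-beta-sterol dehydrogenase Nsdhl 0.27 (adjusted p = 0.291). Fdft1, the squalene synthase, had -0.44 (adjusted p = 0.0597), the sterol reductase Tm7sf2 -0.41 (adjusted p = 0.0756), the sterol isomerase Ebp -0.32 (adjusted p = 0.0927) and the lanosterol demethylase Cyp51 -0.23 (adjusted p = 0.102). Sqle, the squalene epoxidase that sets the pace of the later steps, was at 60.2 to 72.0 CPM in the controls and 57.5 to 82.0 in epileptic sgLacZ, with a log2 fold change of 0.04 ± 0.12. Hsd17b7 (0.05) and Sc5d (0.02) were likewise close to 0, with adjusted p-values of 0.793 and 0.870.

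No mevalonate pathway gene passed the threshold. Idi1, the isopentenyl diphosphate isomerase, had the largest positive log2 fold change of all members, 0.82 ± 0.29 (edgeR adjusted p = 0.0653), from 3.91 to 9.57 CPM in the controls to 5.85 to 14.8 in epileptic sgLacZ. Fdps, the farnesyl diphosphate synthase, had the largest negative one, -0.99 ± 0.43 (adjusted p = 0.115), and both are members whose transcripts have near-identical copies. The kinases Mvk (0.00) and Pmvk (-0.26) and the decarboxylase Mvd (-0.02) had adjusted p-values of 0.994, 0.110 and 0.920. The sign for Mvk, Mvd and Abca1 depended on the scaling and is not read as a direction.

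The regulators of the pathway were not called either. Srebf2, whose protein favours cholesterol genes, fell just short with 0.54 ± 0.17 (edgeR adjusted p = 0.0516), at 123, 125, 137, 138 and 152 CPM in the controls and 126 (E5) to 276 (E4) in epileptic sgLacZ. Srebf1, whose protein favours fatty acid genes, had 0.23 (adjusted p = 0.146). Scap was the only member whose groups did not overlap in CPM, which 4.39% of all genes reached. Controls were at 83.3, 84.4, 72.1, 80.3 and 83.5 CPM and epileptic sgLacZ libraries at 85.8 to 108, yet the log2 fold change of 0.21 ± 0.11 did not pass the test (adjusted p = 0.160). Insig1 had 0.12 (adjusted p = 0.323) and Insig2 -0.18 (adjusted p = 0.113).

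**Figure D3:**
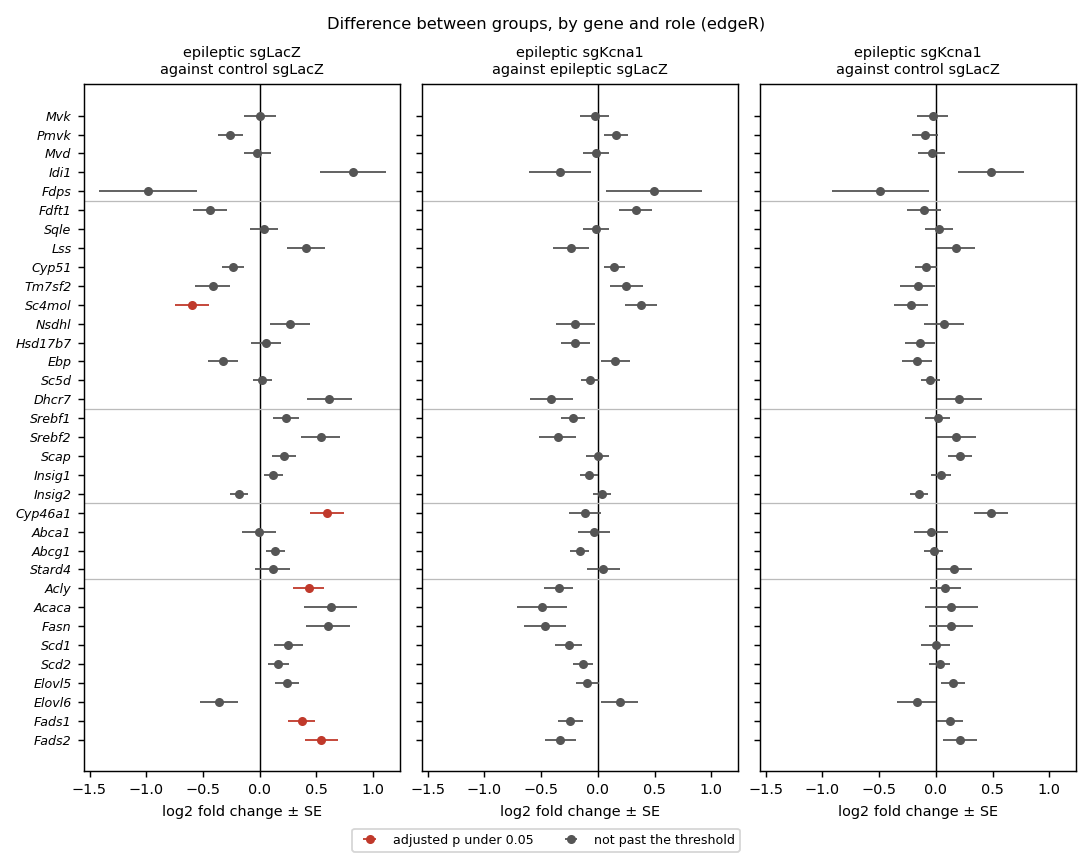
Log2 fold change with its SE for the 34 members (rows in order of role, grey lines between roles) in each of the 3 comparisons, red where the edgeR adjusted p is under 0.05. The 5 red points are all in the first panel, and the epileptic sgLacZ libraries enter the first panel as the numerator and the second as the denominator.

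The 6 epileptic sgLacZ libraries differed among themselves more than the fold changes alone show. E5 lay inside the control range in 28 of 34 members (82.4%, against 74.5% of all genes), whereas E4 did so in 2 (5.88%, against 28.9%) and E7 in 6 (17.6%, against 35.6%). In order of rising unmapped share they ran E4 (11.0%), E7 (15.8%), E9 (17.2%), E6 (19.5%), E8 (23.8%) and E5 (24.1%), and Srebf2 fell in exactly that order, at 276, 224, 206, 177, 166 and 126 CPM. Hsd17b7, Abcg1, Acly and Acaca fell in the same order, 5 of 34 members in all (14.7%, against 5.90% of all genes), and 0 members rose in it, against 7.77% of all genes. The part of read quality in the result was not tested beyond a fit with the unmapped share as a covariate, in which 1 of the 5 calls remained, Sc4mol (edgeR adjusted p = 0.0483), and 2.43% of all genes were called. In that fit the log2 fold changes were smaller, at -0.44 for Sc4mol, 0.42 for Cyp46a1, 0.31 for Acly, 0.34 for Fads2 and 0.22 for Fads1, the last 2 over 1.5 times smaller than without the covariate.

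Marker genes of other cells moved too. Summed over 10 oligodendrocyte markers, controls had 4780 to 6701 CPM and epileptic sgLacZ libraries 3311 to 5198, with 0 of 10 past the threshold and none at 0. Of 8 astrocyte markers 2 rose (Gfap and Aldh1l1), and the sum was 2207 to 2532 CPM in the controls and 2401 to 3149 in epileptic sgLacZ. None of the 8 was called lower, but Sox9 was at 88.7 to 142 CPM in the controls and 41.6 to 99.5 in epileptic sgLacZ. Neurons (Slc17a7) and microglia (Csf1r) each had 1 of 8 markers higher, with sums of 5354 to 5946 against 5322 to 7968 CPM and of 325 to 375 against 299 to 486 CPM. Of 6 choroid plexus markers none passed the test, with a sum of 55.9 to 310.1 CPM in the controls (median 140.5), 155 to 342 in epileptic sgLacZ (median 283) and 24.5 to 233 in epileptic sgKcna1 (median 131). The 6 endothelial markers, again with none past the test, had medians of 278, 220.4 and 233 CPM in the same order. No oligodendrocyte precursor or ependymal marker passed either. The part of cell composition in the members' differences was not tested.

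The calls depended on which libraries were in the fit, while the fold changes moved less. Without any one of C13, C14, C16, C23, E4, E7 or E9 there were 0 calls among the members, and 0 among all genes. At an unadjusted p under 0.05 these fits held 13 to 17 members, beside 20 of 34 with all libraries. The share of all genes at that unadjusted threshold was not counted in these fits. Without C15 there were 2 calls (2.9% of all genes), without E6, K1, K2, K3, K10 or K11 there were 3 (5.44 to 8.7% of all genes), without E8 7 (13.6%), without K12 16 (27.1%) and without E5 18 (31.3%). Over these fits the log2 fold change ran from -0.72 to -0.52 for Sc4mol, from 0.52 to 0.67 for Cyp46a1, from 0.29 to 0.50 for Acly, from 0.43 to 0.63 for Fads2 and from 0.27 to 0.42 for Fads1. DESeq2, the tool of the study's methods, called 12 members (22.2% of all genes), and a sex covariate left 1 (2.93%), Cyp46a1, at a log2 fold change of 0.63. The log2 fold change of each of the 5 called members kept its sign in both sexes.

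Transcript length went along with the fold change. Spearman's rho between the length of the longest coding transcript and the log2 fold change was 0.38 over the 34 members and 0.38 over the 14619 tested genes with a length, a description across genes that share the same libraries. Of members under 2000 bases, 2 of 7 had a positive log2 fold change (median -0.26), against 1167 of 3933 of all such genes (median -0.22). From 2000 to 4000 bases it was 10 of 14 (median 0.13) against 3674 of 6065 (median 0.09). At 4000 bases or more it was 11 of 13 (median 0.23) against 3348 of 4621 (median 0.21). Fads2 and Cyp46a1, at 1508 and 2119 bases, had log2 fold changes above the median of all genes in their length class, and Sc4mol, at 2044 bases, one below it.

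**Figure D4:**
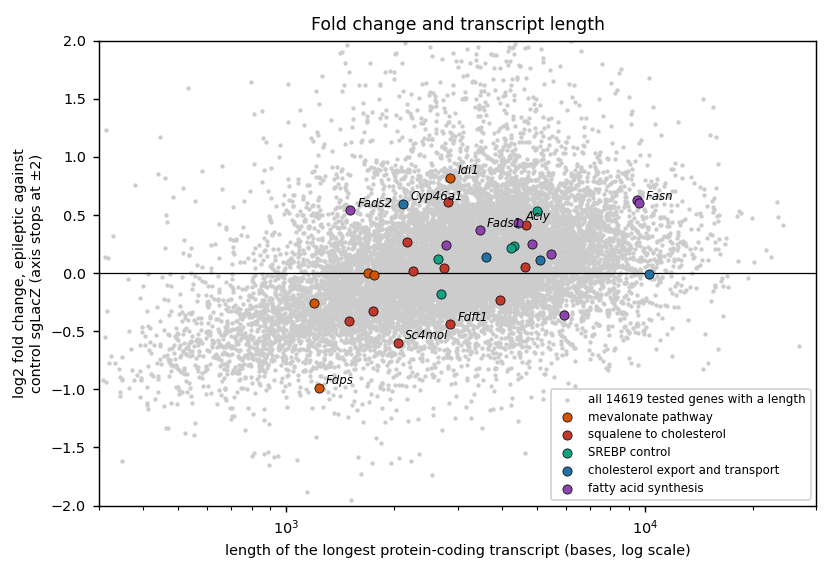
Log2 fold change between epileptic and control sgLacZ against transcript length (bases, log scale) for all 14619 tested genes with a length (grey) and the 34 members (coloured by role), with the vertical axis stopping at ±2. Members follow the upward slope of all genes (rho 0.38 for both), with Fads2, Cyp46a1 and Idi1 above the cloud's centre and Sc4mol, Fdft1 and Fdps below it.

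The second comparison asked what the Kcna1 guide changed in epileptic hippocampus. No member passed the threshold, and neither did any other of the 17615 genes (percent called 0, edgeR). At an unadjusted p under 0.05 there were 10 of 34 members (29.4%), 2 higher and 8 lower, against 19.2% of all genes (8.69% higher and 10.5% lower). DESeq2 called 0 members and 143 genes. The median log2 fold change was -0.09 over the members, -0.01 over all genes, and -0.26 over the 9 members of fatty acid synthesis, of which 8 were below 0 under each of 3 scalings, whereas 49.3% of all genes were above 0. Among all genes with transcripts of 4000 bases or more, 1489 of 4621 were above 0. This comparison shares its epileptic sgLacZ libraries with the first, so a library that is high there lowers the values here.

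The 3 members with the smallest p were Acly, Sc4mol and Fasn. Acly was at 101 to 123 CPM (median 111) in epileptic sgKcna1 against 106 to 207 (median 136) in epileptic sgLacZ, a log2 fold change of -0.35 ± 0.13 (edgeR adjusted p = 0.213). Fasn was at 136 to 178 CPM (median 155) against 133 to 380 (median 196), a log2 fold change of -0.47 ± 0.18 (adjusted p = 0.220). Sc4mol was at 110 to 160 CPM (median 138) against 73.9 to 148 (median 100), a log2 fold change of 0.38 ± 0.14 (adjusted p = 0.214). No member's groups lay apart in CPM (0.483% of all genes did), and for these 3 the epileptic sgKcna1 values were the less spread. For the other called members of the first comparison the log2 fold change was -0.11 for Cyp46a1 (adjusted p = 0.666), -0.33 for Fads2 (0.231) and -0.24 for Fads1 (0.245). Without E5 the 3 members Acly, Fasn and Sc4mol passed the threshold, along with 8.54% of all genes. Without E4 no member did. In that fit 2 members had an unadjusted p under 0.05, against 10 with all libraries, and the share of all genes was not counted. The log2 fold changes there were -0.20 for Acly, -0.22 for Fasn and 0.30 for Sc4mol. With the share of unmapped reads as a covariate they were -0.20, -0.22 and 0.20.

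The third comparison set epileptic mice with the Kcna1 guide against sham controls, to ask what still differs from a healthy hippocampus. Again no member was called, nor any other gene (percent called 0, edgeR), and 1 member, higher, had an unadjusted p under 0.05 (2.94%, against 6.77% of all genes and 4.29% in that direction). The groups overlapped in CPM for all 34 members (1.14% of all genes lay apart). That member was Cyp46a1, at 123 to 220 CPM (median 159) against 106 to 136 in the controls, with 5 of 6 libraries above every control. Its log2 fold change was 0.49 ± 0.15 (adjusted p = 0.601), beside 0.60 for epileptic sgLacZ against the same controls. With the share of unmapped reads as a covariate it was called, 1 of 34 members (1.51% of all genes). Scap, with the next smallest p, was at 79.8 to 128 CPM, a log2 fold change of 0.21 ± 0.11 (adjusted p = 0.761), and its highest value was K12, without which the log2 fold change was 0.09. Insig2 was at 53.4 to 60.1 CPM against 57.3 to 69.8 in the controls, a log2 fold change of -0.15 ± 0.08 (adjusted p = 0.766). The members' median was 0.02, the same as that of all genes.

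For the 5 members called in the first comparison, the epileptic sgKcna1 group lay closer to the controls than epileptic sgLacZ did in each, at log2 fold changes against control of -0.22 for Sc4mol, 0.49 for Cyp46a1, 0.08 for Acly, 0.12 for Fads1 and 0.21 for Fads2. They were chosen for a large difference in the first comparison and both comparisons share the controls, so these values are given side by side and carry no test.

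Other lipid genes, 48 in all from a second list, held calls in 1 of their 4 roles. In epileptic against control sgLacZ 4 of the 48 were called (8.33%, against 11% of all genes), all higher and all among the 11 genes of cholesterol uptake, transport and export. Abcg4, a sterol exporter of neurons and glia, was at 20.5 to 30.1 CPM in the controls and 27.7 to 78.7 in epileptic sgLacZ, a log2 fold change of 0.91 ± 0.25 (edgeR adjusted p = 0.0377) that was 0.43 with the share of unmapped reads as a covariate. Lrp8, a receptor for reelin and lipoproteins, had 0.61 ± 0.16 (adjusted p = 0.0347) and the lipid transporter Abca2 0.57 ± 0.17 (adjusted p = 0.0428), both highest in E4, without which that of Abca2 was 0.36 and not past the threshold. Stard3, which moves cholesterol out of late endosomes, was at 20.5 to 25.5 CPM in the controls and 27.5 to 35.6 in epileptic sgLacZ, with no overlap and a log2 fold change of 0.49 ± 0.12 (adjusted p = 0.0338). None of the 10 sterol and isoprenoid branch enzymes, the 7 other genes of SREBP and LXR control and the 20 other fatty acid genes were called, the smallest p-values among them being those of Acsbg1, a brain acyl-CoA synthetase (0.65, adjusted p = 0.0512), and Acsl6, another (0.25, adjusted p = 0.0639). With library size only as the scaling, 2 of these 20 fatty acid genes were called. Under that scaling the median log2 fold change of all tested genes was 0.09 instead of 0.02. The share of all genes called with it is given with the other settings at the end.

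In the second comparison 0 of the 48 were called. An unadjusted p under 0.05 was reached by 14 of them (29.2%, 13 lower and 1 higher), against 19.2% of all genes (10.5% lower and 8.69% higher). The smallest p-values belonged to Lipa, the lysosomal lipase that frees cholesterol (log2 fold change -0.42, edgeR adjusted p = 0.213), and to Lrp8 (-0.47, adjusted p = 0.213). In the third, 0 were called and 0 had an unadjusted p under 0.05 (6.77% of all genes did), the smallest belonging to the oxysterol-binding protein gene Osbp (0.15, adjusted p = 0.759) and the fatty acid hydroxylase gene Fa2h (-0.36, adjusted p = 0.766).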

How the data were processed

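RNA from mouse hippocampus was sequenced in 17 libraries. Per the labels and the study's methods, the authors aligned reads to mm10 with STAR 2.7 and deposited raw counts of reads per gene for each library, without normalization and without reads that map to several places. The annotation release and duplicate handling are not given in the sources used here. Labels name an unstranded kit and the methods a stranded one. Reverse over forward reads were 0.994 to 0.998, so unstranded counts were used.

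Counts were fitted in R 4.3.3 with edgeR 4.0.16 (filterByExpr, TMM, all 17 libraries, a coefficient per group, two-sided quasi-likelihood test, Benjamini-Hochberg adjustment over 17615 genes, threshold 0.05), and the code was tested on simulated data. DESeq2 1.42.0, limma 3.58.1 and other settings were alternatives. SE is the log2 fold change over the root of its F statistic. The floor of 3 reads corresponds to 0.106 CPM at the greatest depth and 0.253 CPM at the least. This floor covers counting error only. Symbols came from a gene name table (32620 genes), coordinates from GRCm38.p6, and lengths from mm9 transcripts.

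Members and gene lists were chosen with earlier results of these data known. Values by library are given for members past the threshold, those whose groups do not overlap, and, where none pass, the 3 smallest p. Of other lipid genes, those past the threshold are named (at most 6 by size), or else the 2 smallest p. The labels do not say whether libraries of a group came from separate mice, so p-values measure the spread between these samples, which may be partly technical. Pairs within a group differed by 8.67 to 220 times sampling noise, so none was a copy.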

Additional observations from a re-analysis of the deposited data

Results flagged for a closer look

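In 10 of 102 sets of values (34 members in 3 groups), a single library lay far from the others of its group by Dixon's test. For a single set chance gives about 1 in 20, but the 102 sets share the same 17 libraries. The test was run on the members only, so the share of all genes was not counted. All 10 were in 2 libraries, 3 in E4 and 7 in K12. Over all tested genes, E4 was the highest or lowest of the 17 libraries in 43.3% and K12 in 45.6%, so the flags are not read as particular to these members.

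E4 was far above the other epileptic sgLacZ libraries for Fasn at 379.9 CPM (next 218.6), for Scap at 107.8 CPM (next 94.0) and for the cholesterol transporter Abca1 at 37.2 CPM (next 28.2). K12 was far above the other epileptic sgKcna1 libraries for Fdft1 at 192.3 CPM (next 122.6), for Scap at 127.7 CPM (next 89.5) and for Elovl6 at 97.7 CPM (next 59.0). It was far below them for Idi1 at 3.17 CPM (next 8.61), for Lss at 8.87 CPM (next 15.8), for Dhcr7 at 9.80 CPM (next 21.5) and for Stard4 at 12.9 CPM (next 18.2).

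Beside these values, K12 had the highest sum of oligodendrocyte markers of its group, 9158 CPM against a group median of 4627, and E4 the highest sum of neuron markers of all libraries, 7968 CPM. Their part in the values of these libraries was not tested.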

How the results depend on the processing

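For epileptic against control sgLacZ, 5 members were called in the analysis reported, beside 11% of all genes. There were 3 with RLE scaling (2 higher and 1 lower, 10.6% of all genes), 9 with library size only (13.8%), 8 with a stricter filter on low counts (13.4%), 12 with DESeq2 (22.2%), 22 with limma voom and quality weights (41.4%), 8 with both strand counts added (14.2%), 9 with only the 2 groups compared (17.9%), 1 with percent unmapped as a covariate (2.43%) and 1 with sex as a covariate (2.93%). Leaving out each library in turn gave 0 to 18. Leaving out E4 and K12 together, chosen after seeing the data, gave 10 (17.8%), all 5 reported calls among them. Without a filter on low counts there were 4 (4.53%). All genes called moved from 1940 to 3686 with DESeq2, 7301 with voom, 3045 with only the 2 groups compared, and 428 and 516 with either covariate. For epileptic sgKcna1 against epileptic sgLacZ, leaving out each library in turn gave 0 to 3 calls, and for epileptic sgKcna1 against control sgLacZ percent unmapped as a covariate gave 1. The log2 fold changes of members with values by library, and of the 4 other lipid genes called, kept their sign under every alternative. Across the 3 scalings the sign changed for Mvk, Mvd and Abca1 in the first comparison, for Scap, Insig2 and Stard4 in the second and for Mvk, Abcg1 and Scd1 in the third. The cause of these moves was not tested. No paired analysis was possible because the groups share no replicate numbers. Members with few reads, such as Fdps, were measured with little precision.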
